A study of Homo sapiens with 12 samples.

Results

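The imprinted 15q11 locus was described through 44 genes: 20 copies of the small nucleolar RNA SNORD116, 20 copies of SNORD115 and the protein-coding genes MKRN3, MAGEL2, NDN and UBE3A. They are the genes of the region that have an array probe set annotated to them and to no other gene, out of 18417 genes with such a probe set. SNRPN and SNURF were sought too, but every probe set of theirs is annotated to several genes, so neither is among the 44. A gene with more than 1 probe set was to be read from the brightest by its mean of 12 arrays, but 0 of the 44 have more than 1, so although members were to be selected on that mean level, no measured value decided one. The locus itself was picked with results of these data already known, so the p-values below describe each probe set within the fit over all genes and are not independent evidence that the locus stands out. The reference gene table lists 30 SNORD116 and 48 SNORD115 genes, and the copies beyond those described have no probe set of their own.

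The 12 single-colour arrays measured RNA of 2 lymphoma cell lines, U-H01, from Hodgkin lymphoma, and HBL-1, from diffuse large B-cell lymphoma of the activated B-cell-like (ABC-Like) kind. All cells, the uninduced ones included, had been infected with short hairpin RNAs against RelB and cRel, subunits of the transcription factor NF-kB, and doxycycline switched the hairpin on; the design text also names RelA. The 4 groups were uninduced U-H01 and U-H01 labelled induced, 4 arrays each, and uninduced and induced HBL-1, 2 arrays each. U-H01 was transduced as populations B1 and B2 and HBL-1 as population C, and each population has an array at time point 1 and at time point 2 in both of its groups. The labels say that B2 carried a second hairpin sequence but give neither the target behind each population's name nor the hours or days behind the time points, and each line is a single established line. Whether the arrays of a group stand for separate cultures is not said, so p-values measure only the spread between these arrays, and that spread may be technical.

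Most genes of this region are expressed from one parental chromosome only. MKRN3, MAGEL2, NDN and the bicistronic SNURF-SNRPN gene are active on the paternal chromosome, where a long transcript that starts at SNURF-SNRPN carries the SNORD116 and SNORD115 copies in its introns, and each copy is released by trimming of a spliced intron. The snoRNAs are of the box C/D class, which guides 2'-O-methylation of other RNAs in the nucleolus. Neurons extend the long transcript through SNORD115 and against UBE3A, whose paternal copy they silence, while most other tissues transcribe UBE3A from both chromosomes. Loss of the paternal genes, SNORD116 among them, causes Prader-Willi syndrome, and loss of maternal UBE3A causes Angelman syndrome. The paternal SNURF-SNRPN start lies in a CpG island that is methylated on the maternal chromosome and serves as an imprinting centre.

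Start-site windows of the paternal genes are shown for SNURF and SNRPN, which share the start of the snoRNA host transcript, for MKRN3, which rose in one group below, and for NDN, which passed no test. Each is 300 bases of the strand of the gene, written 5' to 3', from 250 bases before the start to 50 after it, from RefSeq on GRCh38.p14, and capitals mark CG dinucleotides, the places where such windows can be methylated. The arrays measured no methylation.
SNURF and SNRPN, chr15:24954737-24955036, plus strand: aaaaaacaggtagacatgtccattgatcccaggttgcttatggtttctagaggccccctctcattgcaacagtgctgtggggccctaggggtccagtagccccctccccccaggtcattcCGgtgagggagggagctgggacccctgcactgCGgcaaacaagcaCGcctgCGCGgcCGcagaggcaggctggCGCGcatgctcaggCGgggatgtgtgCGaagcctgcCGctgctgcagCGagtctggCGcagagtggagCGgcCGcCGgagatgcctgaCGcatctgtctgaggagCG
MKRN3, chr15:23565424-23565723, plus strand: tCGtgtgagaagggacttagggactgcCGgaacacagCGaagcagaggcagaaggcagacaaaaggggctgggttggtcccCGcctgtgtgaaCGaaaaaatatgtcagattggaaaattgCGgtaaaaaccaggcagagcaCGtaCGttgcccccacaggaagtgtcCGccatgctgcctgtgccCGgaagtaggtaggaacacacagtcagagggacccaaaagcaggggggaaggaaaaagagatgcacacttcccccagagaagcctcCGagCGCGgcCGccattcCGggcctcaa
NDN, chr15:23687256-23687555, minus strand: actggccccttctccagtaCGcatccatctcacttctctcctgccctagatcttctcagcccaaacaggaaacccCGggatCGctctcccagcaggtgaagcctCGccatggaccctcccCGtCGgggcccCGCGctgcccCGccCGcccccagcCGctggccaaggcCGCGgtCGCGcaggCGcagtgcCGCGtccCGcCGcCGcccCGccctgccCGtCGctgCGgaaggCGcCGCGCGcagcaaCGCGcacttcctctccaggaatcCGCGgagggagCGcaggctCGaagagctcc

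The window of NDN holds 35 CG dinucleotides, more than 85.9% of the 35116 RefSeq windows of this length. That of SNURF and SNRPN holds 18, and that of MKRN3 holds 15, close to the median of 14 over all windows. Other start sites of SNRPN, not shown, have windows with 7, 2 and 11. That of MAGEL2, which also passed no test, holds 9. The letters TGCCGC, sought on both strands, are in the shown windows of NDN and of SNURF and SNRPN and not in that of MKRN3, and in 16.7% of all windows. The NF-kB consensus, also sought on both strands, has no match in the 3 windows shown, and 5.9% of all windows hold one. The window tables hold 0 of the snoRNA copies, whose sequences are not shown.

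The arrays labelled induced were checked before the locus was read. REL, the gene of cRel, had log2 levels of 9.88 to 10.05 in uninduced U-H01 and 9.95 to 10.30 in U-H01 labelled induced, and 9.70 and 9.78 in uninduced against 9.13 and 9.37 in induced HBL-1. RELB lay at 7.22 to 7.54 and 7.14 to 7.40 in the U-H01 groups and at 7.67 and 7.67 against 7.57 and 7.40 in HBL-1. Neither gene passed the test within a line (REL 0.20 ± 0.09 with limma adjusted p = 0.0720 in U-H01 and -0.49 ± 0.12 with adjusted p = 0.123 in HBL-1). RELA was called higher in U-H01 labelled induced, at means of 8.45 and 8.69, a difference of 0.24 ± 0.08 (limma adjusted p = 0.0229), and not called in HBL-1 (-0.17 ± 0.11, adjusted p = 0.718). No target was thus called lower in either line. The change was more positive in U-H01 than in HBL-1 for REL, by 0.69 ± 0.15 (limma adjusted p = 0.00301), and for RELA, by 0.41 ± 0.13 (0.0325). Arrays of 1 group correlated at 0.991 or more over 19460 probe sets, but U-H01 arrays labelled induced correlated with uninduced ones at 0.893 to 0.910, where arrays of HBL-1 correlated with those uninduced U-H01 arrays at 0.886 to 0.899. The arrays labelled induced of U-H01 correlated with HBL-1 arrays at 0.904 to 0.917, no lower than with the other U-H01 group. In a check of array identity, 4 of the 8 arrays of U-H01 differed from the other 4, and 0 of the 4 HBL-1 arrays stood apart. That check does not settle whether the arrays labelled U-H01 are all of 1 line. A rise in U-H01 is therefore a difference between these 2 sets of arrays, and a change with doxycycline cannot be told apart here from a difference between lines. The U-H01 group is called labelled induced throughout.

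Cell type markers moved with these arrays, and members of a list went different ways. Of 6 B-cell markers 3 were higher and 1 lower in U-H01 labelled induced, where 22.3% of all genes were called higher and 23.5% lower. CD79A went from a mean of 5.73 to 11.04 and CD22 from 6.09 to 10.20, while MS4A1 lay at 4.49 and 4.52 there and at 10.97 or above in both HBL-1 groups. Of 7 Hodgkin cell markers 3 were higher and 3 lower, among them TNFRSF8, which encodes CD30, from 6.89 to 11.59 and CD274, which encodes PD-L1, from 9.91 to 4.11. The T and NK cell list had 3 higher of 8, with ZAP70 from 5.15 to 7.24 and CD3D, CD3E and CD3G not called. The myeloid list had 1 lower of 7. The list of stroma, endothelium and epithelium had 1 higher and 1 lower of 7, with PECAM1 from 10.64 to 5.04, and the neuron list 2 higher and 1 lower of 7, with SNAP25 from 8.85 to 4.79. The part of these differences in the results on the locus was not tested.

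SNORD116 copies were lowest in uninduced U-H01, higher in U-H01 labelled induced and highest in HBL-1. The order was without overlap in 11 of the 20 copies: every uninduced U-H01 array lay below every U-H01 array labelled induced, and these below every HBL-1 array. The same order held for 2.58% of all 18417 genes, and for 0 of the SNORD115 copies and 0 of the 4 protein-coding genes. The 11 are the copies 1, 6, 11, 14, 15, 20, 21, 24, 27, 28 and 29. The copies share a host transcript, and a probe set may bind other copies, so the 11 are not separate observations. Levels here are the deposited log2 values, in which a step of 1 is a doubling, and levels of different copies are not compared, since probe sets differ in brightness. In RNA from a whole culture, fewer cells with a transcript and less of it per cell cannot be told apart.

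SNORD116-15 had levels of 4.17, 4.39, 4.04 and 3.91 in uninduced U-H01 and 7.81, 7.28, 7.88 and 8.15 in U-H01 labelled induced, in the order B1 at time point 1, B1 at 2, B2 at 1 and B2 at 2, and 10.27 and 10.45 in uninduced and 10.35 and 10.68 in induced HBL-1. The 3 steps are clear of each other, and the HBL-1 groups overlap. The U-H01 arrays labelled induced exceeded the uninduced ones by 3.65 ± 0.16 (difference in log2 level ± SE of the limma fit, 4 arrays against 4), or 12.6-fold, with a Benjamini-Hochberg adjusted p of 1.57e-09.

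SNORD116-14 had levels of 3.11, 2.99, 3.27 and 3.19 in uninduced U-H01, 6.98, 5.49, 7.29 and 6.95 in U-H01 labelled induced, 9.70 and 9.72 in uninduced HBL-1 and 9.69 and 9.93 in induced HBL-1. The group means were 3.14 ± 0.12 (SD, n = 4), 6.67 ± 0.81 (n = 4), 9.71 ± 0.01 and 9.81 ± 0.17 (n = 2 each). The B1 array at time point 2 is the low one among those labelled induced. The U-H01 difference was 3.54 ± 0.21, or 11.6-fold (limma adjusted p = 2.28e-08), and stayed between 3.34 and 3.87 in every other setting and with any array left out.

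SNORD116-20 had levels of 4.28, 2.89, 3.08 and 3.07 in uninduced U-H01, 6.29, 5.95, 6.69 and 6.80 in U-H01 labelled induced, 8.75 and 8.94 in uninduced HBL-1 and 8.95 and 9.16 in induced HBL-1. The uninduced array of B1 at time point 1, stood above the other 3 of its group but below every array labelled induced. The U-H01 difference was 3.10 ± 0.25, or 8.59-fold (limma adjusted p = 3.96e-07).

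SNORD116-21 had levels of 3.36, 3.37, 3.13 and 3.17 in uninduced U-H01, 6.80, 4.96, 6.94 and 6.48 in U-H01 labelled induced, 9.18 and 9.41 in uninduced HBL-1 and 9.38 and 9.85 in induced HBL-1. Again the B1 array at time point 2 is low among those labelled induced. The U-H01 difference was 3.04 ± 0.28, or 8.20-fold (limma adjusted p = 1.40e-06).

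SNORD116-24 had levels of 3.30, 3.13, 3.01 and 3.43 in uninduced U-H01, 4.85, 4.79, 5.03 and 5.15 in U-H01 labelled induced, 6.54 and 6.81 in uninduced HBL-1 and 6.98 and 7.32 in induced HBL-1. None of these groups overlap, the HBL-1 ones included. The U-H01 difference was 1.73 ± 0.10, or 3.33-fold (limma adjusted p = 2.45e-08). In these 5 copies, the ones with the largest differences, the B1 array at time point 2 was the lowest of the 4 labelled induced in 5 of 5, and over all 20 copies it was the lowest in 8.

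**Figure D1:**
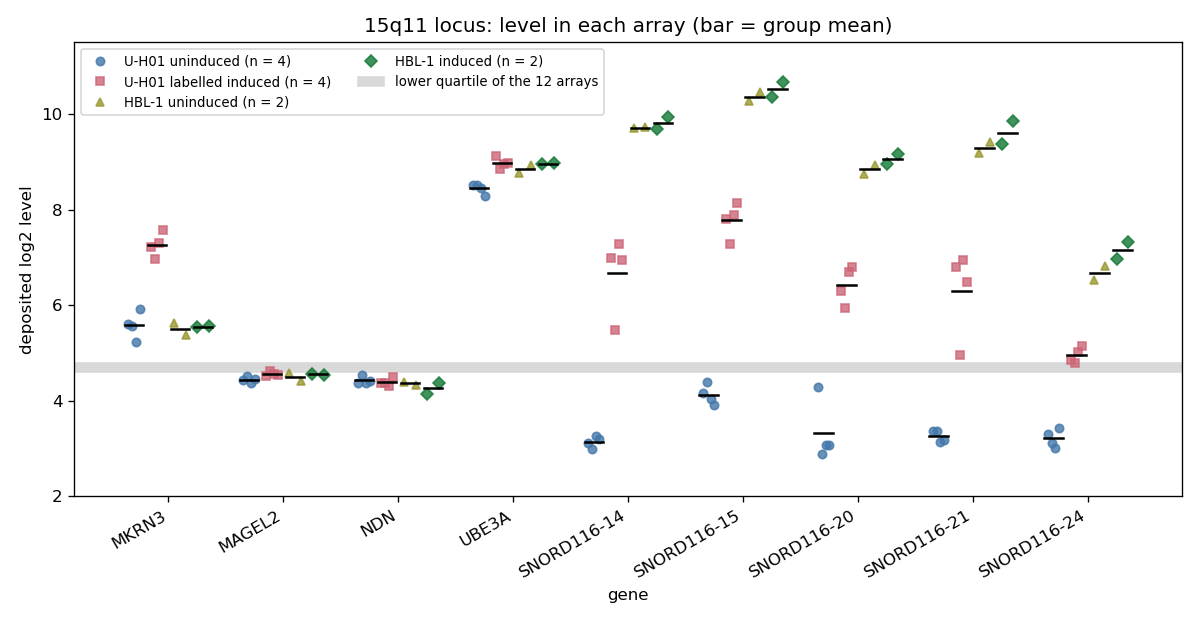
Deposited log2 level (vertical axis) of the 4 protein-coding genes and the 5 SNORD116 copies with the largest U-H01 difference, 1 point per array, coloured by the 4 groups, with a bar at each group mean and a grey band over the lower quartiles of the 12 arrays (4.61 to 4.79). The SNORD116 copies form 3 steps, MKRN3 is high only in the 4 U-H01 arrays labelled induced, and MAGEL2 and NDN lie below the band, apart from 1 MAGEL2 array at 4.63.

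Of the 20 SNORD116 copies, 13 rose in U-H01 labelled induced against uninduced and 0 fell, where 22.3% of all genes were called higher and 23.5% lower (45.8% in all). All 20 differences were positive, from 0.04 to 3.65, with a median of 0.42 against 0.03 over all genes. The 13, called from these same arrays, were higher in each of the 4 pairs of arrays that share a population and a time point. That follows largely from the call and adds no support, and the share over all genes was not counted. Of the 13, all but the 5 copies above lay at or below the array's lower quartile in every U-H01 array of either group. Past the 5 copies above, 8 rose by less than 2-fold: SNORD116-6 by 0.86 ± 0.18, SNORD116-28 by 0.64 ± 0.09, SNORD116-1 by 0.58 ± 0.11, SNORD116-29 by 0.50 ± 0.11, SNORD116-13 by 0.44 ± 0.10, SNORD116-11 by 0.41 ± 0.09, SNORD116-22 by 0.36 ± 0.12 and SNORD116-27 by 0.26 ± 0.09. The calls of SNORD116-22 and SNORD116-27 were lost in 5 and 8 of the other settings, with adjusted p up to 0.100 and 0.0976, most of them fits without 1 U-H01 array.

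The other 7 copies did not pass. SNORD116-25 differed by 0.32 ± 0.14 (limma adjusted p = 0.0719), and the smallest differences were those of SNORD116-12 at 0.04 (95% interval -0.22 to 0.30) and SNORD116-18 at 0.05 (-0.15 to 0.25). SNORD116-10 and SNORD116-16 had group means between 2.98 and 3.15 and between 2.78 and 2.91, with overlapping arrays in all 4 groups. In uninduced U-H01 all 20 copies lay at or below the array's lower quartile in every array. In U-H01 labelled induced 15 of the 20 did so, the smaller rises included. Such low values sit near background, where an array understates a fold.

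In HBL-1 no copy passed the test of induced against uninduced arrays, where 0.603% of all genes were called. SNORD116-24 went from 6.54 and 6.81 to 6.98 and 7.32, a difference of 0.47 ± 0.15 (limma adjusted p = 0.234). SNORD116-25 went from 3.92 and 3.87 to 4.72 and 4.20, a difference of 0.56 ± 0.19 (adjusted p = 0.305). The induced arrays of both copies lie above the uninduced ones. Over the 20 copies the median difference was 0.16 against -0.01 over all genes. Of the copies, 9 were higher in both pairs of arrays and 0 were lower in both, shares not counted over all genes. An unadjusted limma p under 0.05 was found for 4 copies, SNORD116-24, SNORD116-25, SNORD116-27 and SNORD116-28, and for 1794 of all 18417 genes. The most negative were SNORD116-29 at -0.19 and SNORD116-10 at -0.17.

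The change was larger in U-H01 than in HBL-1 for 6 copies when the difference between the lines' changes was itself tested, where 15.4% of all genes were called higher. The excess was 3.50 ± 0.28 for SNORD116-15 (limma adjusted p = 1.17e-06), 3.44 ± 0.36 for SNORD116-14, 2.89 ± 0.43 for SNORD116-20, 2.72 ± 0.48 for SNORD116-21, 1.26 ± 0.18 for SNORD116-24 and 0.69 ± 0.19 for SNORD116-29. The call of SNORD116-29 (adjusted p = 0.0134) was lost when either HBL-1 array of time point 1 was left out, with adjusted p up to 0.227. For 14 copies no difference between the lines' changes was called, the most negative being SNORD116-25 at -0.24 (95% interval -0.75 to 0.27).

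**Figure D2:**
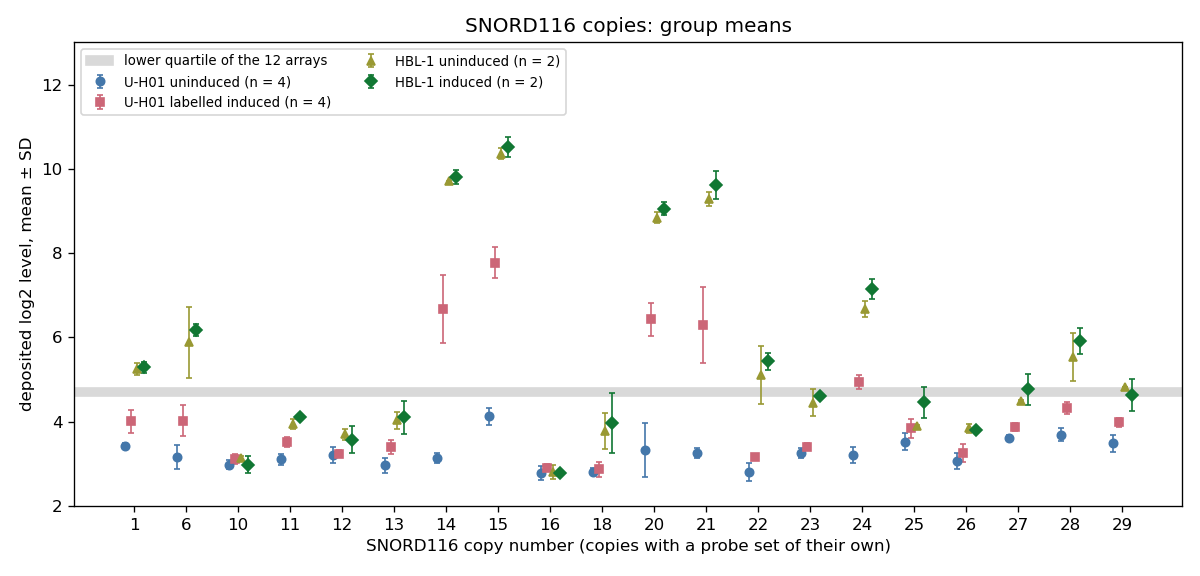
Mean deposited log2 level ± SD (vertical axis) of each of the 20 SNORD116 copies with a probe set of its own (horizontal axis, copy number) in the 4 groups, with the lower quartiles of the arrays as a grey band. Copies 14, 15, 20, 21 and 24 are raised furthest in U-H01 labelled induced, and copies 10 and 16 are near 3 in all groups. Points are comparable within a copy, not between copies.

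Between the lines, 17 of 20 SNORD116 copies were lower in uninduced U-H01 than in uninduced HBL-1 and 0 were higher, against 22.1% and 20.7% of all genes (42.8% in all). The differences were -6.57 ± 0.26 for SNORD116-14 (95.2-fold lower), -6.24 ± 0.20 for SNORD116-15 (75.5-fold), -6.04 ± 0.34 for SNORD116-21 (65.7-fold) and -5.51 ± 0.31 for SNORD116-20 (45.7-fold), with limma adjusted p of 1.90e-08 or below. The median over the 20 copies was -1.26 against -0.03 over all genes. SNORD116-10, SNORD116-16 and SNORD116-25 did not pass, with differences of -0.17, -0.03 and -0.38 (adjusted p = 0.302, 0.859 and 0.0916).

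U-H01 labelled induced was below induced HBL-1 for 17 copies, where 20.6% of all genes were called lower and 17.9% higher (38.5% in all). The largest differences were -3.32 ± 0.34 for SNORD116-21 (9.95-fold lower), -3.14 ± 0.26 for SNORD116-14, -2.74 ± 0.20 for SNORD116-15 and -2.62 ± 0.31 for SNORD116-20. SNORD116-10, SNORD116-12 and SNORD116-16 did not pass, at 0.14, -0.33 and 0.13. This comparison, the one between uninduced lines and the one within U-H01 share arrays, so their counts are not independent of each other. Over both U-H01 groups, every HBL-1 array lay above every U-H01 array in 16 SNORD116 copies, as in 12.8% of all genes.

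SNORD115, the neighbouring cluster on the same long transcript, did not follow these steps. Of its 20 copies, 0 rose and 0 fell in U-H01 labelled induced, where 22.3% of all genes were called higher and 23.5% lower. The differences lay between -0.18 and 0.10, and the smallest adjusted p was 0.197 (limma). The median was -0.03. The most positive differences were SNORD115-48 at 0.10, SNORD115-32 at 0.09 and SNORD115-31 at 0.08, and the most negative SNORD115-24 at -0.18 and SNORD115-25 at -0.12. In both U-H01 groups all 20 copies lay at or below the lower quartile in every array, and 18 and 17 of them did so in uninduced and induced HBL-1. A p above the threshold at such levels does not show that the copies were equal.

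The copies that differed were higher in HBL-1. SNORD115-44 had levels of 3.47, 3.88, 3.85 and 4.0 in uninduced U-H01, 3.78, 3.73, 3.64 and 3.70 in U-H01 labelled induced, 5.48 and 6.30 in uninduced HBL-1 and 5.33 and 5.57 in induced HBL-1. SNORD115-25 had levels of 2.87, 2.77, 2.83 and 2.88, then 2.82, 2.64, 2.84 and 2.58, and 4.34 and 4.63 in uninduced and 4.09 and 5.01 in induced HBL-1. In both copies the U-H01 groups overlap and every HBL-1 array is above them. SNORD115-32 lay between 3.07 and 3.40 in the 8 U-H01 arrays and between 4.53 and 5.17 in the 4 HBL-1 arrays, and SNORD115-38 between 2.71 and 2.99 and between 3.88 and 4.12.

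Uninduced U-H01 differed from uninduced HBL-1 by -2.09 ± 0.14 for SNORD115-44 (4.25-fold lower, limma adjusted p = 9.53e-08), by -1.65 ± 0.13 for SNORD115-25, by -1.61 ± 0.13 for SNORD115-32 and by -1.20 ± 0.09 for SNORD115-38. In all, 12 of 20 copies were lower and 0 higher, 5 of them over 2-fold, with a median of -0.35, where 22.1% of all genes were called lower. Among the arrays labelled induced the count was again 12 lower and 0 higher, against 20.6% of all genes called lower. The largest differences were SNORD115-25 at -1.83, SNORD115-44 at -1.73, SNORD115-32 at -1.40 and SNORD115-38 at -1.11. The calls of these copies held in both comparisons in every setting, but several smaller ones did not. Between uninduced lines, SNORD115-3 was lost in 6 other settings, SNORD115-40 in 5 and SNORD115-34 in 3. Among arrays labelled induced, SNORD115-34 was lost in 9 and SNORD115-8 in 4. Part of these settings leave a single HBL-1 array in a group. Every HBL-1 array was above every U-H01 array in 13 copies, as in 12.8% of all genes. In induced against uninduced HBL-1, 0 copies passed, and 7 were lower in both pairs of arrays, a share not counted over all genes. The most negative were SNORD115-44 at -0.44 ± 0.16 (limma adjusted p = 0.355), SNORD115-41 at -0.34 and SNORD115-27 at -0.28.

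**Figure D3:**
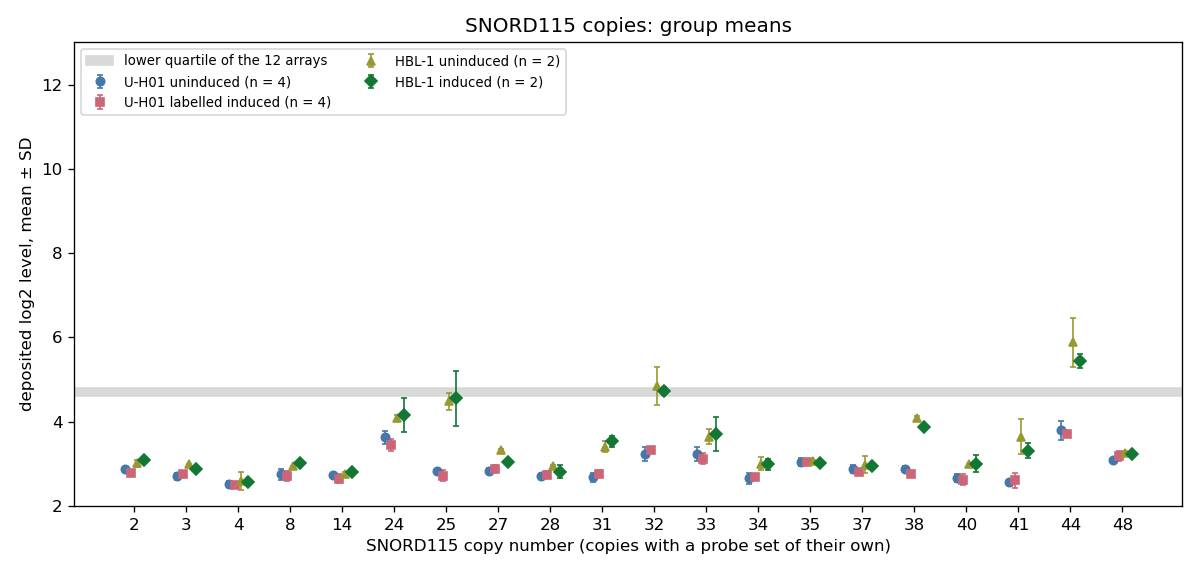
Mean deposited log2 level ± SD (vertical axis) of each of the 20 SNORD115 copies with a probe set of its own (horizontal axis, copy number) in the 4 groups, with the lower quartiles of the arrays as a grey band and the same vertical scale as the plot of SNORD116 copies. The U-H01 groups lie on each other, and HBL-1 is above them in copies such as 25, 32, 38 and 44.

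MKRN3, the makorin ring-finger gene at one end of the region, was high in a single group. It had levels of 5.61, 5.56, 5.23 and 5.93 in uninduced U-H01, 7.23, 6.96, 7.31 and 7.57 in U-H01 labelled induced, 5.62 and 5.39 in uninduced HBL-1 and 5.54 and 5.57 in induced HBL-1. Every array labelled induced of U-H01 was above all 8 others, as held for 9.81% of all genes and for no other of the 44. The other 3 groups overlap. The difference within U-H01 was 1.68 ± 0.14, or 3.21-fold (limma adjusted p = 5.21e-07), that from induced HBL-1 was 1.71 ± 0.17, or 3.28-fold (4.03e-06), and the change exceeded that of HBL-1 (0.05 ± 0.20) by 1.63 ± 0.24 (0.000195).

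UBE3A, the ubiquitin ligase gene, was well expressed in all groups and lowest in uninduced U-H01. Its levels were 8.53, 8.52, 8.45 and 8.28 there, 9.12, 8.85, 8.96 and 8.98 in U-H01 labelled induced, 8.77 and 8.93 in uninduced HBL-1 and 8.95 and 8.98 in induced HBL-1. All 8 other arrays are above the 4 uninduced U-H01 ones. The difference within U-H01 was 0.53 ± 0.08, or 1.45-fold (limma adjusted p = 0.000143), and uninduced U-H01 differed from uninduced HBL-1 by -0.41 ± 0.10 (0.00536). The latter call was lost without the uninduced HBL-1 array of time point 2 (adjusted p = 0.151). Among arrays labelled induced the lines differed by 0.01 (95% interval -0.21 to 0.23). The change exceeded that of HBL-1 by 0.42 ± 0.14 (adjusted p = 0.0398), a call lost with each pair of arrays as a replicate block (0.0575) and in 11 other settings.

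MAGEL2 and NDN, which encode proteins of the MAGE family, passed no test. MAGEL2 lay between 4.37 and 4.63 and NDN between 4.15 and 4.54 over the 12 arrays. The groups of NDN overlap, and the U-H01 groups of MAGEL2 meet at 4.51, with HBL-1 arrays in the range of both. Within U-H01 the difference was 0.12 for MAGEL2 (95% interval -0.04 to 0.29) and -0.04 for NDN (-0.22 to 0.14). Within HBL-1 it was 0.05 (-0.18 to 0.28) and -0.10 (-0.35 to 0.15). These intervals leave out a change of 2-fold in either line, on the scale of these low values.

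**Figure D4:**
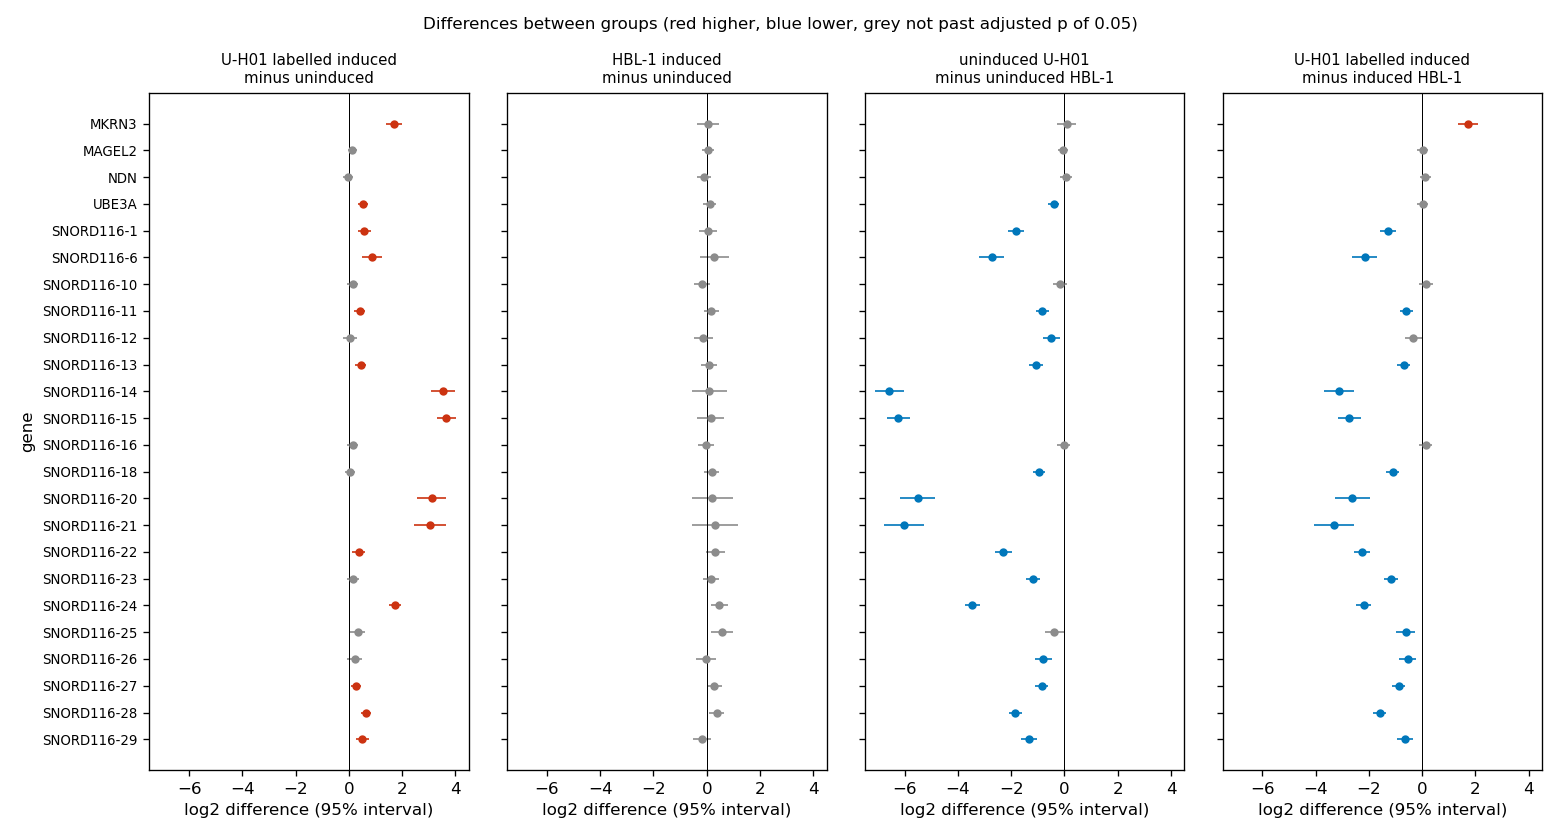
Difference in log2 level with its 95% interval (horizontal axes) for the 4 protein-coding genes and the 20 SNORD116 copies (vertical axis) in 4 comparisons, 1 panel each; red marks genes called higher, blue lower and grey those not past an adjusted p of 0.05. In the first panel 15 genes are red and 0 blue, in the second all are grey, and in the last MKRN3 alone is red.

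Populations B2 and B1 of U-H01 gave no call at the locus: 0 of 44 genes passed, where limma called 0% of all genes, with 2 of the 44 and 2528 of all genes at an unadjusted p under 0.05. The largest values were SNORD116-14 at 0.53 ± 0.21 (95% interval 0.07 to 0.99, adjusted p = 0.309), SNORD116-6 at 0.38, SNORD116-21 at 0.31 and SNORD116-28 at 0.21. Those of the SNORD115 copies lay between -0.16 and 0.15.

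Other genes of the region moved in both directions. Of 17 other transcripts of the SNRPN host region, 2 have a probe set of their own. PWAR6, a transcript between SNURF-SNRPN and the snoRNA clusters, had levels of 3.05, 3.09, 3.06 and 3.11 in uninduced U-H01, 3.74, 3.35, 3.73 and 3.88 in U-H01 labelled induced, 4.14 and 4.34 in uninduced HBL-1 and 4.62 and 4.38 in induced HBL-1. It has the order without overlap seen in SNORD116, as have 2.58% of all genes, and its U-H01 difference was 0.60 ± 0.11 (limma adjusted p = 0.000530). All its U-H01 levels lay below the lower quartiles of the arrays (4.61 to 4.79), near background. NPAP1 differed by 0.16 ± 0.09 (0.179).

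Of 12 measured genes flanking the imprinted interval from 15q11 to 15q13, 6 rose and 2 fell in U-H01 labelled induced, against 22.3% and 23.5% of all genes. APBA2, an adaptor gene, rose by 3.62 ± 0.10 and TJP1, a tight-junction gene, by 2.37 ± 0.17, while NIPA1, a magnesium transporter gene, changed by -2.19 ± 0.08 and CYFIP1, of the WAVE actin regulatory complex, by -1.71 ± 0.12 (limma adjusted p of 1.39e-07 or below). In induced HBL-1, CYFIP1 rose by 1.0 ± 0.16 (adjusted p = 0.0174), the only one of the 12 called there. Of all genes, 0.603% were called in that comparison and 0.418% were called higher. The change of CYFIP1 in U-H01 minus that in HBL-1 was -2.71 ± 0.20 (adjusted p = 5.45e-07).

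Genes that build box C/D particles were called in both directions, in shares that are read against the 22.3% of all genes called higher and 23.5% called lower. Of 10 measured core and assembly genes 3 rose and 3 fell in U-H01 labelled induced, among them NUFIP1 at 0.65 ± 0.08 and NOLC1 at 0.53 ± 0.09, and the RUVBL2 and RPAP3 genes of the assembly complex at -0.89 ± 0.10 and -0.72 ± 0.08. Of the 7 Sm core genes of the spliceosome, relatives of SNRPN, 2 rose and 1 fell, SNRPG at 0.53 ± 0.14, SNRPF at 0.45 ± 0.11 and SNRPB at -0.42 ± 0.08. Of 7 measured protein partners of MAGEL2 and UBE3A, 3 rose and 2 fell, with the deubiquitinase gene USP7 at 1.67 ± 0.08 and TRIM27 at -0.84 ± 0.09. In induced HBL-1, 0 genes of these 3 lists passed, where 0.603% of all genes were called.

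Imprinted genes elsewhere gave 3 called higher and 6 lower of 16 measured, against 22.3% and 23.5% of all genes. Their median difference was -0.145 against 0.028 over all genes. PEG10 and SGCE, neighbours that share an imprinted start region, had means of 9.61 ± 0.53 and 8.19 ± 0.08 (SD, n = 4) in uninduced U-H01 and of 5.43 ± 0.18 and 4.69 ± 0.19 in U-H01 labelled induced, differences of -4.18 ± 0.19 and -3.50 ± 0.09. In uninduced HBL-1 the means were 10.31 for PEG10 and 8.06 for SGCE. Their order over the groups is thus not that of SNORD116. The 6 measured snoRNAs of the imprinted DLK1-DIO3 cluster gave 0 calls in all 6 comparisons, with a smallest limma adjusted p of 0.112. Between 0% and 45.8% of all genes were called in these comparisons. The highest level of these snoRNAs in any array was 4.13, where the lower quartiles of the arrays are 4.61 to 4.79. The missing calls at such levels do not show that they were equal. Of 12 genes of imprint maintenance 3 rose and 3 fell in U-H01 labelled induced, near the shares of all genes (22.3% and 23.5%). Among them were DNMT3B, a DNA methyltransferase gene, at -0.94 ± 0.09 and TRIM28 at -0.83 ± 0.09. The histone methyltransferase genes EHMT1 and EHMT2 changed by 0.92 ± 0.09 and -0.92 ± 0.09.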

How the data were processed

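Total RNA of 12 cell-line samples was hybridised to single-colour expression arrays. The values deposited by the authors are log2 levels. The submitters' processing notes name RMA and Partek, with no version given in the sources used here. RMA corrects background, equalises the distributions of the arrays and summarises each probe set, so a shift of all genes in 1 direction would not show. The table holds 33297 probe sets, of which 19460 carry 1 gene symbol in the platform annotation, 1754 several and 12083 none. Only the first were tested, and 1 probe set stood for each of 18417 genes. SNORD copies are near-identical in sequence, so a probe set may also bind transcripts of other copies. No depth applies to arrays, and their number limits the precision. No pair of arrays held identical values (0 pairs).

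Groups came from the sample titles. The 6 comparisons came from 1 linear model in limma 3.58.1 (R 4.3.3, lmFit and eBayes) with 7 terms, for population, time point within line and induction within line, and 5 residual degrees of freedom. Tests were two-sided, with Benjamini-Hochberg adjustment over the 19460 probe sets and calls at an adjusted p under 0.05. Differences are given ± SE and group levels ± SD. The fit was tested on simulated data. The pairing of arrays comes from the labels' protocols, by which each population was split into an induced and an uninduced portion, though the paired arrays' deviations from the group means correlated at only -0.02 to 0.14.

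The genes, lists and tests were chosen with earlier results of these data known. The rule names the protein-coding genes throughout, of each snoRNA family the 4 highest and 2 lowest copies by mean level and the 4 largest differences each way, and of each list the 4 smallest p. Other copies are named where a count is broken down. REL and RELB were added for the label check. Alternatives covered the replicate block, group means alone, a second quantile normalization, a filter on low values, other probe-set choices, other variance priors, each line alone and every array left out. Leaving out either U-H01 group was added after the data were seen. Start-site windows are from RefSeq (GRCh38.p14). Figures used matplotlib 3.10.9 (Python 3.11.15).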

Additional observations from a re-analysis of the deposited data

Results flagged for a closer look

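Of 88 sets of 4 arrays (44 genes in 2 U-H01 groups), 3 had an array far from the other 3, all of them the highest of the uninduced arrays: SNORD116-20 at 4.28 and SNORD115-38 at 2.99, both in B1 at time point 1, and SNORD116-18 at 2.93 in B2 at time point 1. Chance marks about 1 in 20 such sets.

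The difference of arrays labelled induced from uninduced ones was itself compared between the lines, and the test called 8 genes. The excess in U-H01 was 3.50 for SNORD116-15, 3.44 for SNORD116-14, 2.89 for SNORD116-20, 2.72 for SNORD116-21, 1.63 for MKRN3, 1.26 for SNORD116-24, 0.69 for SNORD116-29 and 0.42 for UBE3A. In U-H01 a change with doxycycline cannot be told apart from a difference between lines. In all 8 the U-H01 change was the more positive. They are 8 of the 44 genes, where 15.4% of all genes were called in that direction and 32.4% in either, so their number is near the background.

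Probe sets annotated to several genes of the locus were outside the comparisons above. There are 21, and 15 of them differ in their values. In 8 of these 15, every U-H01 array labelled induced was above every uninduced one, with no test made, as in 20.0% of all 1754 probe sets annotated to several genes. They are 5 of 6 with SNORD116 copies, 0 of 6 with SNORD115 copies, and 3 others. The probe set of SNURF and SNRPN, at the start of the host transcript, had levels of 4.79, 4.26, 5.06 and 4.90 in uninduced U-H01 and 7.70, 7.57, 7.82 and 7.69 in U-H01 labelled induced, a difference in means of 2.94, and 8.0, 7.88, 8.18 and 8.10 in HBL-1. That of SNORD64 and PWAR5, which lie between SNURF-SNRPN and the SNORD116 copies, differed by 3.11, from means of 3.37 to 6.48, and reached 7.80 and 8.29 in HBL-1. That of SNORD109A and SNORD109B, which flank the snoRNA clusters, differed by 1.08. The SNORD116 probe sets differed by 3.82 (copies 14 to 22, with SNRPN), 2.28 (copies 3, 6, 8 and 9), 2.09 (3, 5, 7, 8 and 9), 1.30 (copy 4, with SNRPN) and 1.20 (3, 5, 7 and 9). A value of these probe sets cannot be assigned to 1 of its genes.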

How the results depend on the processing

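No result on the 44 genes turned its direction past the threshold in any setting. With the replicate block (each pair of arrays as a term), 15 of the 44 were called in U-H01, 0 in HBL-1 and 7 for the difference between the changes, and UBE3A was the call it removed. With probe sets above the median level only, 4 of the 44 are left to test: UBE3A, SNORD116-14, SNORD116-15 and SNORD116-21. The counts became 4 in U-H01, 4 between the uninduced lines, 3 between the lines labelled induced and 4 for the difference between the changes. The filter used the mean over 12 arrays (median 6.28). The SNORD116 copies passed it through the groups where they are high, with means of 3.14, 4.13 and 3.26 in uninduced U-H01. Their calls there follow largely from the filter and add no support. Of all genes above that level, 6291, 5912, 5556 and 4704 were called in these comparisons. The number tested was not counted, so no share is given. With HBL-1 fitted alone, on 4 arrays, 3 of the 44 genes were called in that line in place of 0: SNORD116-24 and SNORD116-25 higher and SNORD115-44 lower. That fit called 868 of all 18417 genes in place of 111. Leaving out 1 array at a time gave 13 to 16 calls in U-H01 (15 with all arrays), 0 to 0 in HBL-1, 24 to 30 between the uninduced lines (30), 23 to 30 between the lines labelled induced (30), 0 to 0 between B2 and B1 and 7 to 10 for the difference between the changes (8). Of the 15 calls in U-H01, 13 held in every setting that tested them, as did 22 of 30 between the uninduced lines, 20 of 30 between the lines labelled induced and 6 of 8 for the difference between the changes. Without the U-H01 arrays labelled induced, 31 were called between the uninduced lines, and without the uninduced U-H01 arrays 29 between the induced ones. The causes were not tested. The 40 snoRNA copies are mostly dim, which limits what a missing call shows.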
